A study of Mus musculus with 6 samples.

Results

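The colony-stimulating factors and their receptors were followed in 6 subcutaneous tumours of G422, a mouse glioblastoma cell line. The family was taken as 10 genes of the 54532 in the count table, found by symbol: the ligands Csf1, Il34, Csf2, Csf3 and Kitl, and the receptors Csf1r, Csf2ra, Csf2rb, Csf3r and Kit. The family was selected on the measured counts of Csf3r, the receptor of granulocyte colony-stimulating factor, which stood high in the tumours labelled shNgb. Its own values are therefore given as a description with no test. The values of the other members were not part of that rule, but the members were chosen with earlier results of these data known.

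The tumours grew in Kunming mice, an outbred stock, and the G422 cells carried either the vector (shVec, 3 tumours) or a construct labelled shNgb (3 tumours), put in by lentivirus. The labels give both groups as untreated, and the age and number of the mice are not stated in the labels. The series title speaks of a knockdown of Ngb, the gene of neuroglobin, while the description of the design names Ngb itself. The cell line name in the sample characteristics counts up from G422 to G427 over the samples, while titles and source name give G422 for all, which was followed. The labels call the tumours independent without saying that each came from its own mouse, so the p-values reflect only how these tumours vary.

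The libraries held 19630319 to 25620667 reads. Ngb had 28, 23 and 13 reads in the shVec tumours against 18, 19 and 11 in shNgb, with overlapping groups (log2 fold change -0.59, 95% interval -1.55 to 0.37), so a lower level was not detected and shNgb stands below for the label. Of the markers of the labelled cell type, Nes, Vim, Sox2 and Cspg4 were present (Nes at 506.2 ± 35.3 against 413.9 ± 28.7 CPM, the reads of a gene scaled to library size, lower in all 3 shNgb tumours), while Olig2 had no read in any tumour and Gfap and S100b had 15 and 22 reads over all 6. No gene of the 15203 tested passed an adjusted p under 0.05 in edgeR (0.00% called), and 392 (2.58%) had an unadjusted p under 0.05. The smallest edgeR adjusted p over all tested genes was 0.9997, so that value does not rank the genes named below. DESeq2 called 5 genes, limma-voom 0 and edgeR without the expression filter 3, none of them a member.

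As background, colony-stimulating factors are secreted proteins that keep myeloid cells alive and drive their growth and maturation. Csf1 and Il34 both bind Csf1r, the receptor tyrosine kinase on which macrophages and microglia depend. Csf2 acts through the alpha chain Csf2ra and the common beta chain Csf2rb, Csf3 acts through Csf3r on neutrophils and their precursors, and Kitl binds Kit on mast cells, melanocytes and stem cells. In gliomas, Csf1 and Il34 are known as signals to tumour macrophages. A bulk tumour holds cancer cells and host cells together, and here more cells of a type and more RNA per cell cannot be told apart.

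The family spanned a wide range of levels. On the FPKM scale, the authors' deposited values per gene length, Csf1 was the most abundant member with a mean of 9.90 over the 6 tumours, followed by Il34 at 6.32, Csf1r at 3.77, Kitl at 3.75, Csf2ra at 3.06 and Csf2rb at 1.36. Csf3 at 0.796, Csf3r at 0.678, Csf2 at 0.188 and Kit at 0.107 were scarce. Among the 6 tumours, Csf1 stood above Il34, Il34 above Csf1r and Csf2ra above Csf2rb in all 6. The neighbours Csf1r and Kitl, Kitl and Csf2ra, and Csf2 and Kit changed places between tumours, each pair standing in the order of its means in 3 of 6. Csf2rb stood above Csf3 and Csf3 above Csf3r in 4 of 6, and Csf3r above Csf2 in 5 of 6. The gene length implied by the deposited FPKM was 0.645 of the exonic bases annotated for Csf2ra in GENCODE M21 and 0.847 of those of Csf1r, so the place of these receptors in the order depends on the annotation. For the remaining members it was between 0.994 and 1.002 of them.

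**Figure D1:**
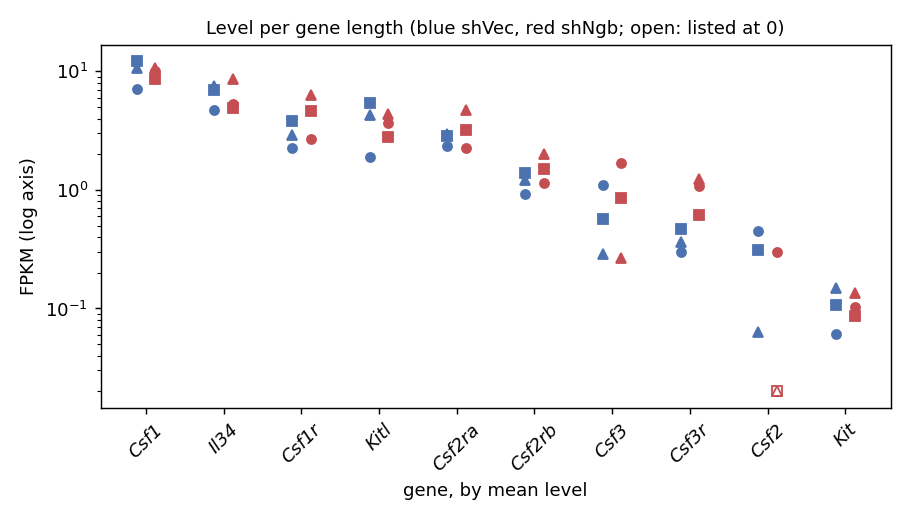
Deposited FPKM (log axis) of the 10 genes in each tumour, ordered by their mean, with shVec in blue, shNgb in red and replicates 1, 2 and 3 as circles, squares and triangles. Csf1 and Il34 lead, Kit and Csf2 close the order, and the open symbols at the lower edge stand for the shNgb tumours in which Csf2 was listed at 0.

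Csf3r was the member with the clearest difference between the groups, by the choice of the family. It had 24, 34 and 26 reads in shVec against 81, 55 and 117 in shNgb. As CPM these were 1.09, 1.71 and 1.32 against 3.91, 2.26 and 4.48, or 1.38 ± 0.31 and 3.55 ± 1.15 (SD, n = 3 each). All 3 shNgb tumours stood above all 3 shVec tumours, shNgb replicate 2 by the least. The fitted log2 fold change of shNgb over shVec was 1.37, and with each tumour left out in turn it lay between 1.16 and 1.61. These same values chose the family, so that range is a description and no check of the difference. The gene (ENSMUSG00000028859) lies on chromosome 4 at 126024550 to 126044440, plus strand, in GENCODE M21 (build GRCm38), and no other annotated gene shares exonic bases with it.

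Csf3, the ligand of Csf3r, showed no such difference in level. It had 34, 16 and 8 reads in shVec against 50, 30 and 10 in shNgb, or 1.55, 0.806 and 0.407 CPM against 2.41, 1.23 and 0.383 CPM. The groups overlapped widely, and the highest and the lowest Csf3 levels of all 6 tumours were both in shNgb, in replicates 1 and 3. Those 2 tumours had the highest Csf3r levels. In edgeR the log2 fold change of Csf3 was 0.51 (SE 0.69, 95% interval -1.07 to 2.10, adjusted p = 0.9997), and it ranged from -0.21 without shNgb replicate 1 to 1.12 without shVec replicate 1. Expressed as a ratio of shNgb to shVec, the interval is 0.476 to 4.27, wide enough to hold a difference of either sign. The FPKM ratio of Csf3 to Csf3r was 3.62, 1.202 and 0.786 in shVec against 1.58, 1.39 and 0.218 in shNgb.

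Markers of neutrophils, the cells best known for Csf3r, were scarce. Of 14 markers, Ly6g and Elane had no read in any tumour, and Ngp, Camp, Ltf, Mmp8 and Mpo had 4 to 14 reads each over all 6. As an approximate upper limit for a count of 0, 3 reads were taken, which are 0.117 to 0.153 CPM. The summed level of the list was 3.83 to 5.90 CPM in shVec against 3.04 to 11.5 CPM in shNgb, where it was high in replicate 1 alone. S100a9, a calcium-binding protein that neutrophils hold in bulk, stood at 4.002 CPM in that tumour and between 0.268 and 1.09 CPM in the other 5. The other tested markers were mixed in shNgb replicate 1. Il1r2 was the highest of all 6 tumours (1.83 CPM), Trem1 lay within the shVec range (1.25 CPM) and Fpr1 was the lowest (0.241 CPM). Among the markers not tested, S100a8 (2.41 CPM), Cxcr2 (0.771 CPM), Retnlg (0.627 CPM) and Ngp (0.241 CPM) were also highest in shNgb replicate 1. Camp, Ltf, Mmp8 and Mpo were highest in other tumours. One tumour with high Csf3r, shNgb replicate 1, also had the highest neutrophil sum, while shNgb replicate 3, with the highest Csf3r, had 4.41 CPM, within the range of shVec. The median log2 fold change of the 4 tested neutrophil markers was 0.09, and it ranged from -0.35 (without shNgb replicate 1) to 0.30 (without shNgb replicate 2) when single tumours were left out, turning negative also without shVec replicate 1 (-0.06).

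Monocyte markers other than F13a1 were highest in shNgb replicate 3. The sum of all 6, F13a1 included, was 20.8 to 25.9 CPM in shVec against 19.2, 48.7 and 50.9 CPM in shNgb replicates 1, 2 and 3. F13a1, a coagulation factor subunit made by monocytes and macrophages, gave 28.8 CPM of the sum in shNgb replicate 2 but was the lowest of all tumours in shNgb replicate 3 (2.34 CPM), with a log2 fold change of -0.04. Ms4a4c stood at 0.638, 3.48 and 1.48 CPM in shVec against 2.36, 2.30 and 7.97 CPM in shNgb, with overlapping groups. Ccr2, the receptor that brings monocytes from blood into tissue, was at 3.46, 4.59 and 3.41 CPM in shVec against 5.01, 9.26 and 18.2 CPM in shNgb, without overlap. In log2 it differed by 1.51 (SE 0.44, edgeR adjusted p = 0.9997), and it did not pass. Of the 5 monocyte markers tested, 4 were positive, with a median of 1.29 that became 0.45 when shNgb replicate 3 was left out and 0.77 when shVec replicate 1 was. The part of neutrophils and monocytes in the Csf3r levels was not tested.

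Csf1r stood at 11.1, 18.6 and 14.4 CPM in the shVec tumours and at 13.2, 22.8 and 31.2 CPM in the shNgb tumours. The shNgb replicates 2 and 3 were above every shVec tumour, and shNgb replicate 1 lay within the shVec range. The log2 fold change was 0.61 (SE 0.32, 95% interval -0.15 to 1.37, edgeR adjusted p = 0.9997), or 0.901 to 2.58 as a ratio. Without shNgb replicate 3 it was 0.29 and without shNgb replicate 1 it was 0.87. The gene (ENSMUSG00000024621, chromosome 18, 61100598 to 61132149, plus strand) shares 873 of its 5774 exonic bases with Hmgxb3 on the opposite strand. The library kit does not mark strand, so reads from those bases cannot be assigned by strand, and Hmgxb3 stood at 65.5 ± 3.87 CPM in shVec against 64.6 ± 3.58 CPM in shNgb. The length of Csf1r implied by the deposited FPKM was 4893 bases, so whether the shared bases were counted for it is not known.

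The summed macrophage markers ranked the 6 tumours in the same order as Csf1r. The sum of 16 markers was 151.8, 328.8 and 261.4 CPM in shVec against 198.9, 396.0 and 494.2 CPM in shNgb. All 15 that were tested had a positive log2 fold change, with a median of 0.54 against 0.0026 over all tested genes, and 0 were called. That median was 0.30 without shNgb replicate 3 and likewise without shVec replicate 1, and 0.84 without shNgb replicate 1. C1qa, a complement subunit made by macrophages, stood at 41.4 ± 14.1 and 60.8 ± 29.5 CPM, and Mpeg1, a pore-forming protein of macrophages, at 32.5 ± 11.5 and 60.9 ± 34.9 CPM (SD, n = 3 each). Other leukocyte markers were also highest in shNgb replicate 3: the dendritic cell sum ranged from 7.61 to 11.6 CPM in shVec and from 8.25 to 24.0 CPM in shNgb, that of T and NK cells from 2.85 to 14.4 and from 3.62 to 31.5 CPM, and that of B and plasma cells from 1.16 to 3.05 and from 1.83 to 11.8 CPM. The positive signs were not particular to macrophages. Of the tested genes, 7 of 7 for T and NK cells, 2 of 2 for B and plasma cells and 4 of 5 for dendritic cells were positive. Their medians were 1.12, 1.93 and 0.27, and 0.42, 1.34 and 0.13 without shNgb replicate 3. The part of macrophages and other leukocytes in the Csf1r level was not tested.

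The fitted differences of the ligands of Csf1r were near 0. Csf1 stood at 37.6, 64.8 and 56.9 CPM in shVec against 53.3, 45.7 and 57.4 CPM in shNgb, so the shNgb tumours lay inside the shVec range. In log2, shNgb minus shVec was -0.03 (SE 0.19, 95% interval -0.47 to 0.42, edgeR adjusted p = 0.9997), or 0.720 to 1.34 as a ratio. Il34 stood at 9.29, 13.7 and 14.7 CPM in shVec against 10.5, 9.71 and 16.9 CPM in shNgb, with a log2 fold change of -0.02 (SE 0.25, 95% interval -0.60 to 0.56, edgeR adjusted p = 0.9997). Both ligands were lowest in shVec replicate 1. The sign of either difference changed when single tumours were left out.

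Per gene length, Csf1 exceeded its receptor in every tumour. The FPKM ratio of Csf1 to Csf1r was 3.13, 3.22 and 3.65 in shVec against 3.75, 1.85 and 1.70 in shNgb, low in the 2 tumours where Csf1r was high. The ratio of Il34 to Csf1r was 2.08, 1.83 and 2.55 in shVec against 1.98, 1.06 and 1.35 in shNgb. On the log2 scale the group means differed by -0.55 and -0.59 (two-sided exact permutation p = 0.4 and 0.2, adjusted p = 0.533 for both over 4 ratios compared). With 3 tumours against 3 no exact p under 0.1 can be reached. Ptprz1, which encodes another receptor of IL-34 known from the brain, had no read in any tumour.

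Csf2, the gene of granulocyte-macrophage colony-stimulating factor, was close to absent. It had 8, 5 and 1 reads in shVec against 5, 0 and 0 in shNgb, too few for the expression filter, and it was the 1 member that was not tested. Summed over each group, 14 against 5 reads, the rate in shNgb was 0.314 of that in shVec, with an exact 95% interval of 0.0886 to 0.923. That interval covers counting error and not the spread between tumours, and reads of 1 library are not all independent molecules. In every tumour with reads Csf2 was at or below 0.364 CPM.

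Both chains of its receptor were present and stood higher in shNgb replicates 2 and 3 than in the shVec tumours. Csf2ra, the ligand-binding chain, was at 4.37, 5.34 and 5.55 CPM in shVec against 4.19, 5.97 and 8.78 CPM in shNgb. In log2 it differed by 0.32 (SE 0.28, 95% interval -0.32 to 0.95, edgeR adjusted p = 0.9997), and without shNgb replicate 3 it was -0.0019. Csf2rb, the signalling chain shared with the receptors of IL-3 and IL-5, was at 6.74, 10.1 and 8.91 CPM in shVec against 8.29, 11.03 and 14.8 CPM in shNgb. In log2 it differed by 0.41 (SE 0.24, 95% interval -0.14 to 0.96, edgeR adjusted p = 0.9997), and by 0.17 without shNgb replicate 3 and 0.26 without shVec replicate 1. Within a tumour the FPKM ratio of Csf2rb to Csf2ra varied little, from 0.392 to 0.502 over all 6 (shNgb minus shVec 0.13 on the log2 scale, two-sided exact permutation p = 0.3, adjusted p = 0.533).

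The count of Csf2rb is uncertain because mice carry a close copy next to it, Csf2rb2, the beta chain specific to the IL-3 receptor. Both lie on chromosome 15, Csf2rb at 78325752 to 78353847 (plus strand) and Csf2rb2 at 78282507 to 78305721 (minus strand). Their coding sequences of 2691 and 2637 bases were identical at 95.2% of 2631 aligned bases, and 26.0% of the 50-base windows of the Csf2rb coding sequence occurred unchanged in Csf2rb2. The first 120 coding bases from the GENCODE M21 transcripts are shown because they make the problem visible, with capitals at the 4 positions where the genes differ.
Csf2rb: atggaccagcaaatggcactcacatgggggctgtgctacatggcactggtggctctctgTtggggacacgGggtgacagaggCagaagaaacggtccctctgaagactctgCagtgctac
Csf2rb2: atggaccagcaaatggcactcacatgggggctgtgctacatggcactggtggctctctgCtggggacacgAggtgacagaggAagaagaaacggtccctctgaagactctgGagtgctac
How reads that match both were counted is not given in the sources used here. Csf2rb2 stood at 2.597, 4.74 and 3.21 CPM in shVec against 3.71, 4.61 and 6.21 CPM in shNgb, and the FPKM ratio of Csf2rb to Csf2rb2 stayed between 1.39 and 1.81. With the reads of both genes summed, the log2 fold change was 0.43, close to the 0.41 of Csf2rb alone.

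Kitl, the gene of stem cell factor, was abundant and its receptor was not. Kitl stood at 11.2, 32.4 and 25.5 CPM in shVec against 21.6, 16.9 and 26.3 CPM in shNgb, the shNgb tumours within the range of shVec. In log2 it differed by -0.09 (SE 0.38, 95% interval of the ratio 0.500 to 1.77, edgeR adjusted p = 0.9997), and its sign turned when shVec replicate 2, the tumour of highest Kitl, was left out (0.24). Counts per gene do not separate the soluble and the membrane-bound forms of stem cell factor or of Csf1, which arise by splicing.

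Kit had 12, 19 and 26 reads in shVec against 19, 19 and 32 in shNgb, or 0.547, 0.957 and 1.32 CPM against 0.916, 0.782 and 1.23 CPM. The log2 fold change was 0.06 (SE 0.41, 95% interval -0.87 to 0.99, edgeR adjusted p = 0.9997). Per gene length Kitl exceeded Kit by 29.0 to 51.0 times, the widest gap between a ligand and its receptor among the 4 pairs with reads of both in every tumour. The ratio was 36.9 ± 12.2 in shVec and 33.5 ± 1.84 in shNgb (SD, n = 3 each). Cells known for high Kit left little trace: the 7 mast cell markers summed to 0.0411 to 0.756 CPM, with Ms4a2, the beta chain of the IgE receptor, at 0 reads, and of 5 melanocyte markers Tyr, Dct and Mlana were at 0 reads in all tumours.

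**Figure D2:**
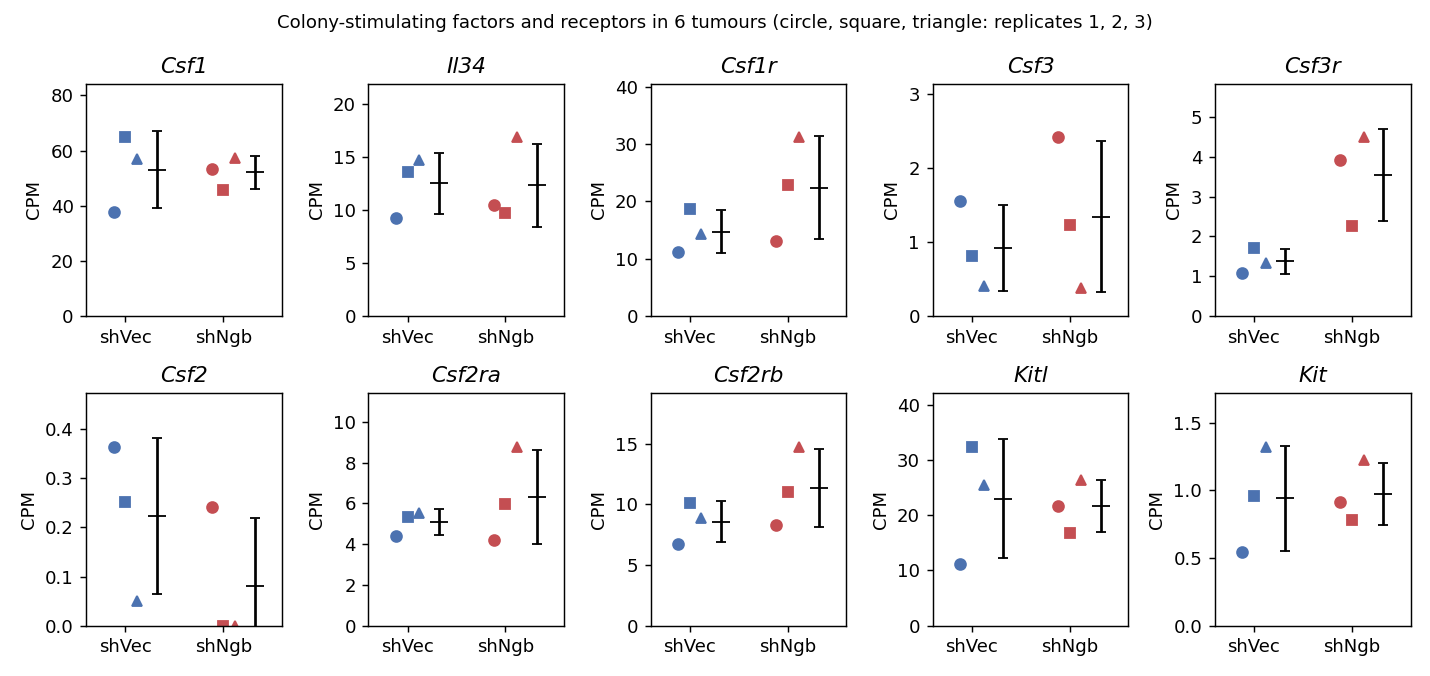
CPM of each gene in each tumour (linear axes from 0, replicates 1, 2 and 3 as circle, square and triangle), with the mean and SD of each group in black. The groups are apart for Csf3r, with 1.09 to 1.71 CPM in shVec against 2.26 to 4.48 CPM in shNgb, and overlap for the other 9 genes, and the lower SD bar of Csf2 is cut at 0.

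Read as a family, 9 of the 10 members passed the expression filter. Leaving aside Csf3r, whose values chose the family, 5 of the 8 other tested members were positive and 3 negative by the sign of the fitted difference. Their median was 0.19 (log2), beside 50.9% positive and a median of 0.0026 over all 15203 tested genes. Groups that did not overlap were seen in 1 member, Csf3r, where the choice of the family fixes it, against 3.67% of all tested genes higher and 3.43% lower in shNgb. Of the 8 other tested members, 0 had an unadjusted p under 0.05 in edgeR. Their unadjusted edgeR p ran from 0.0999 for Csf1r to 0.94 for Il34. The 3 negative values belonged to the ligands Csf1, Il34 and Kitl, and the receptor nearest to 0 was Kit.

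**Figure D3:**
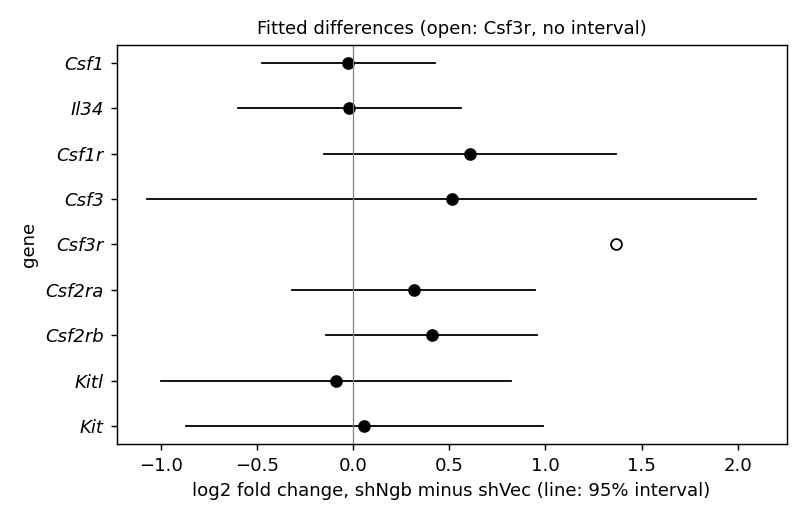
Log2 fold changes (shNgb minus shVec, edgeR) of the 9 tested genes, with 95% intervals as lines for all but Csf3r, which is shown as an open point without one. Every interval shown covers 0, from -0.47 to 0.42 for Csf1 to -1.07 to 2.10 for Csf3.

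Csf2rb and Csf2ra were the members nearest to Csf1r in their pattern over the 6 tumours. Likeness was measured as the mean absolute difference of log2 CPM after centring each gene on the 6 tumours, so that 0 means the same pattern. The distance also grows with counting noise and with how much a gene varies. Csf3r had 337 reads over all 6 tumours against 2537 for Csf1r. Csf2rb lay 0.16 and Csf2ra 0.20 from Csf1r, and 69 and 168 of the 11555 named genes with at least 1 CPM lay closer. Csf3r lay 0.47 from Csf1r, and shNgb replicate 1 had the second highest Csf3r but the second lowest Csf1r. The FPKM ratio of Csf1r to Csf3r was 7.51, 8.02 and 8.04 in shVec against 2.49, 7.46 and 5.13 in shNgb, a description that uses the Csf3r values. Kit lay 0.17 from Il34, 0.19 from Csf1 and 0.21 from its own ligand Kitl.

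**Figure D4:**
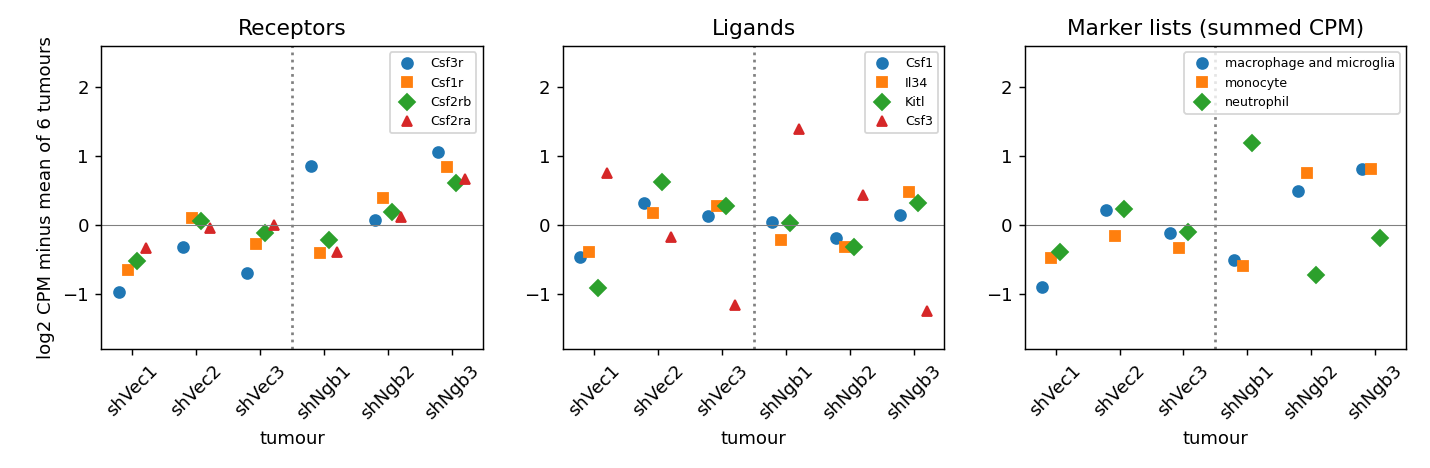
Log2 CPM minus the mean of the 6 tumours for 4 receptors, 4 ligands and the summed levels of macrophage and microglia, monocyte and neutrophil markers, with the tumours along the axis and a dotted line between the groups. Csf1r, Csf2rb, Csf2ra and the macrophage sum (494.2 CPM) are highest in shNgb replicate 3, Csf3r is also high in shNgb replicate 1, and Csf3 is lowest in shNgb replicate 3.

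The genes with the pattern most like Csf1r were Fcgrt, the neonatal Fc receptor (0.048), Otulinl (0.057), the interferon-inducible gene Ifi204 (0.062) and P2ry6, a receptor for extracellular UDP (0.070). Those most like Csf3r lay farther off: the tetraspanin gene Tspan6 (0.21), Lilrb4a, an inhibitory receptor of leukocytes (0.22), Btk, a tyrosine kinase of B cells and myeloid cells (0.24), and Hcar2, the niacin receptor (0.24). Lilrb4a stood at 1.59, 2.87 and 3.11 CPM in shVec against 5.30, 3.21 and 5.86 CPM in shNgb. Genes picked by closeness to Csf3r share its difference between the groups through that choice, so these values are a description. Of the 11555 genes, 300 lay closer to Csf3r than Csf1r did, while 7300 lay closer to Csf1r than Csf3r did.

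The wider pathway was read from lists of 90 genes, of which 79 were tested. EdgeR called 0 of them (0.00% of all tested genes were called), and at an unadjusted p under 0.05 stood 2 with a higher (Sla and Lifr) and 1 with a lower level (Klf4) in shNgb, or 3 of 79 beside 2.58% of all tested genes. Their median log2 fold change was 0.11, with 57 positive and 22 negative. Groups that did not overlap were seen in 2 genes higher (Sla and Il17rc) and 2 lower (Klf4 and Sos1), beside 3.67% and 3.43% of all tested genes. The lists were chosen with earlier results of these data known, so these counts are descriptions.

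Genes that carry the signal inside the cell are described by sign beside the 50.9% of all tested genes that were positive, and 0 of them were called. Of 14 JAK and STAT genes, 13 were positive, with a median of 0.12 that was 0.07 without shNgb replicate 3. Stat5a, a transcription factor activated by Csf2 and Csf3 receptors, stood at 3.22 ± 0.83 CPM in shVec against 4.76 ± 1.11 CPM in shNgb, and Cish, an inhibitor induced by STAT5, at 0.916 ± 0.173 and 1.35 ± 0.29 CPM. The kinase gene Pim1 stood at 28.6 ± 5.86 and 23.5 ± 0.78 CPM. Of 18 SRC family kinases, adaptors and PI3K genes, 13 were positive, with a median of 0.12 that was 0.07 without shNgb replicate 2 and 0.18 without shNgb replicate 1. Fgr, a SRC family kinase of myeloid cells, stood at 1.27 ± 0.50 CPM in shVec against 4.01 ± 3.73 CPM in shNgb, where replicate 3 alone had 8.20 CPM.

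Inhibitors and transcription factors varied in both directions. Among 11 phosphatases, ubiquitin ligases and other inhibitors the median was 0.10 with 7 positive, and it was 0.06 without shVec replicate 3 and 0.15 without shNgb replicate 1. Sla, an adaptor that helps remove receptors from the surface, stood at 3.98 ± 1.0 and 6.64 ± 1.56 CPM without overlap of the groups (SD, n = 3, edgeR adjusted p = 0.9997). Spi1, which encodes PU.1, stood at 3.37, 8.11 and 6.26 CPM in shVec against 4.87, 9.67 and 13.5 CPM in shNgb, the tumours in the same order as by Csf1r. Irf8, another factor of the monocyte lineage, stood at 8.29 ± 0.68 and 12.96 ± 6.59 CPM, with 20.4 CPM in shNgb replicate 3. Runx1 differed in the other direction, at 129.3 ± 19.5 CPM in shVec against 103.5 ± 21.1 CPM in shNgb, with overlapping groups. Of 12 tested myeloid factors, 8 were positive with a median of 0.13, which became 0.04 when shNgb replicate 2 was left out and 0.06 when shVec replicate 3 was. Klf4, a factor of monocyte maturation and of many epithelia, stood at 56.5 ± 6.71 against 34.2 ± 5.82 CPM without overlap (log2 fold change -0.72). Klf4 did not pass in edgeR (adjusted p = 0.9997), but it did in DESeq2 (adjusted p = 0.014) and in edgeR without the expression filter (adjusted p = 0.016).

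None of the genes that release or induce the ligands was called. The proteases Adam17 and Adam10, which cleave membrane-bound factors, stood at 52.0 ± 4.89 and 171.9 ± 5.08 CPM in shVec against 55.2 ± 2.85 and 177.1 ± 13.2 CPM in shNgb. All 5 genes of that list were tested, with a median of 0.04 that became -0.06 when shNgb replicate 1 was left out and -0.05 when shVec replicate 3 was. Of 10 tested inducers of CSF genes, 6 were positive with a median of 0.09, which ranged from 0.01 (without shNgb replicate 2 or shVec replicate 3) to 0.25 (without shVec replicate 2). Il17rc, a chain of the IL-17 receptor, stood at 13.9 ± 1.02 and 16.8 ± 1.15 CPM without overlap of the groups, did not pass in edgeR (adjusted p = 0.9997), and Il17a had no read in any tumour.

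Related cytokines and receptors had 16 genes, of which 9 were tested, with a median of 0.01 that was 0.23 without shNgb replicate 2 and 0.24 without shNgb replicate 3. Il3 and Il5, the other ligands that signal through beta chains of the Csf2rb type, had 2 reads each over all 6. Il3ra, the alpha chain of the IL-3 receptor, stood at 23.0 ± 3.98 CPM in shVec against 21.0 ± 4.87 CPM in shNgb. Lifr, a chain of the LIF receptor related to Csf3r, stood at 1.37, 0.252 and 0.662 CPM in shVec against 2.03, 1.11 and 2.38 CPM in shNgb, with overlapping groups.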

How the data were processed

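RNA of 6 tumours was sequenced after Trizol extraction and TruSeq RNA library preparation, per the labels' protocols. Bowtie 0.12.2 and the builds mm8 and mm10 are named without a role in the submitters' processing notes, and the counter is not given in the sources used here. Raw read counts by Ensembl ID and FPKM values were deposited by the authors. For the members, the deposited FPKM followed the reads, given 1 factor per gene and 1 per library, within a relative 7.8e-09.

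Symbols came from a table of Ensembl IDs and gene names, which named 54409 of 54532 IDs, and positions from GENCODE M21 (GRCm38). Counts were tested with edgeR 4.0.16 in R 4.3.3 (default expression filter, TMM scaling, robust quasi-likelihood F-test), with Benjamini-Hochberg adjustment over 15203 genes. The standard error came from the F statistic. CPM are TMM-scaled and FPKM served levels and ratios between genes. Log2 CPM for likeness used a prior count of 2. Alternatives used DESeq2 1.42.0, limma-voom (limma 3.58.1), other scalings and filters, a block and the omission of each library. The procedure was tested on simulated data.

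The members and lists were chosen with earlier results of these data known. Named are all members, Csf2rb2, up to 4 genes per list (smallest p, or highest level for cell markers) and the 4 genes with the pattern most like Csf3r, Csf1r and Kit each. Other genes were chosen after their values were seen. These were Hmgxb3, Ngb, Ptprz1, Il3, Il5, Il17a and the markers at or near 0 reads. The neutrophil genes S100a8, Cxcr2, Retnlg, Ngp, Camp, Ltf, Mmp8 and Mpo were chosen in the same way.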

Additional observations from a re-analysis of the deposited data

How the results depend on the processing

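The call of 0 genes was the same in 11 of 14 alternatives, and the adjusted p of each of the 8 tested members besides Csf3r stayed above 0.05 in all of theirs. The count was 3 with no filter beyond 1 read, 5 with DESeq2 and 1 with the replicate block, and 0 to 0 when each library was left out. The cause was not tested, and none of the called genes was a member, though Klf4 was called by DESeq2 and with no filter. Same-numbered tumours deviated together weakly for replicate 1 (correlation 0.26) and not for replicates 2 and 3 (-0.14 and -0.10). As 2 of 6 libraries correlated best with their own number, the numbers were not taken as pairs. With the replicate block Csf1 was 0.0021 and Kitl 0.0091 (log2 fold change).

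Csf1r and Csf2rb kept their sign in every alternative. Leaving out 1 library gave 0.29 to 0.87 for Csf1r and 0.17 to 0.59 for Csf2rb. With limma-voom Csf1 was 0.012 and Kitl 0.048, and with upper quartile scaling Il34 was 0.00027, the opposite sign of their small main values. Leaving out 1 library gave, for the other tested members, -0.22 to 0.14 for Csf1, -0.32 to 0.13 for Il34, -0.0019 to 0.53 for Csf2ra, -0.21 to 1.12 for Csf3, -0.22 to 0.38 for Kit and -0.42 to 0.24 for Kitl. The strict filter removed Kit. The scarce members (Csf2, Kit, Csf3 and Csf3r) are limited by depth.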

Other observations

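Genes with the pattern most like Kit over the 6 tumours were Pde8a, a phosphodiesterase (mean absolute difference of centred log2 CPM 0.078), Gp1ba, a platelet glycoprotein (0.11), Cdpf1 (0.11) and Creld1 (0.12). Csf3 was distant from the receptors compared with it: it lay 1.005 from Csf1r, 1.08 from Kit and 0.83 from its receptor Csf3r. It had 148 reads over all 6 tumours, and few reads raise this distance. Markers of endothelial cells, which can make several of these ligands, summed to between 71.7 and 74.7 CPM in shVec and between 63.6 and 79.3 CPM in shNgb, with a median log2 fold change of -0.0092 over 6 genes (0.092 without shNgb replicate 2 and 0.0091 with upper quartile scaling). Of 5 tested fibroblast markers, 4 were positive and 0 were called in edgeR, with a median of 0.41 (0.16 to 0.78 with single tumours left out). Col1a1 stood at 155.3 ± 36.0 CPM in shVec against 281.5 ± 72.1 CPM in shNgb without overlap, and DESeq2 called it (adjusted p = 0.026). Col3a1 stood at 1467.6 ± 118.5 and 1261.6 ± 573.7 CPM. The part of these cells in the ligand levels was not tested. Eosinophil markers summed to at most 0.288 CPM in any tumour, with Epx and Prg2 at 0 reads.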
